A study of Mus musculus with 33 samples.

Results

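Among the H3K4me3 domains of wild type (WT) mouse embryonic stem cells (mESC), 3391 of 15272 were distal. A domain was called distal when it was shorter than 30 kb, shared no base with a WT mESC H3K27me3 domain and lay over 10 kb from the start of every protein-coding gene of the mm9 GENCODE annotation, measured from the domain's edge. The members were thus selected on the WT mESC H3K4me3 and H3K27me3 lists themselves, so the length, mark and gene distance of the distal domains are given as description. Under the same limits of length and H3K27me3, 5026 domains held a coding gene start (start-holding domains) and 435 lay within 10 kb of one without holding it (near domains). The other 6420 domains were 30 kb or longer or met H3K27me3.

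The study profiled histone marks and pluripotency factors by ChIP-seq, which sequences the DNA recovered with an antibody, to ask what the loss of Uhrf1 does to chromatin in stem cells and on differentiation. The 33 samples comprise 17 WT and 16 Uhrf1 knockout (KO) libraries, with lists of enriched regions for 25 of them. The groups were undifferentiated E14 mESC and Uhrf1 KO mESC, and the embryoid bodies (EBs, floating clumps of differentiating cells) that each line had formed after 1, 2 or 3 weeks. Each group held 1 library, so a difference could not be set against a spread between replicates.

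E14 and the KO line came from another laboratory, were kept with leukemia inhibitory factor on gelatin or on a fibroblast feeder layer, and each genotype is represented by a line rather than by several clones. EBs were begun as hanging drops and hold mixed cell types, and in such bulk samples a domain lost from all cells and a domain kept in fewer cells cannot be told apart. Uhrf1 itself was profiled in WT mESC only, so no list checks its absence in the KO. As a check of cell type, the promoters of 7 of 8 mESC marker genes met a WT H3K4me3 domain (Pou5f1, Nanog, Sox2, Zfp42, Klf4, Dppa5a and Tdgf1, but not the annotated start of Esrrb). Among these 8, Pou5f1, Sox2, Klf4 and Esrrb also met a domain of the WT H3K27me3 list that the rule uses. Of 8 feeder fibroblast markers 4 met a WT H3K4me3 domain (Col1a1, Col1a2, Thy1 and Twist1), and all 4 also met H3K27me3.

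H3K4me3 is laid down by the Set1 and MLL enzymes and is known above all from active promoters, most of them CpG islands. Away from promoters, H3K4me3 is usually low and H3K4me1 marks enhancers, yet strong enhancers and unannotated or alternative promoters can carry trimethylation. In mESC many enhancers are bound by Oct4, Sox2 and Nanog, with Oct4 and Sox2 reading adjacent DNA motifs. Uhrf1 binds H3K9me3 and hemimethylated DNA and brings the maintenance methyltransferase Dnmt1 to replicating DNA.

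DNA round the tallest Oct4 summits of distal domains is shown first, because the distal domains differ from start-holding ones in their factors. Windows of 300 bp were read from mm9 on the forward strand and centred on the summit, the position with the most reads. Capitals mark an octamer (ATGCAAAT) or a Sox core (ACAATG) on either strand. Each marked match lies nearer to an edge of its window than to the summit in the middle. The windows are those with a match among domains with the tallest summits or nearest to pluripotency genes. The Prdm14 window, which had no match but whose domain held all 3 factors, was added.
Fzd7 domain, chr1:59433342-59433641: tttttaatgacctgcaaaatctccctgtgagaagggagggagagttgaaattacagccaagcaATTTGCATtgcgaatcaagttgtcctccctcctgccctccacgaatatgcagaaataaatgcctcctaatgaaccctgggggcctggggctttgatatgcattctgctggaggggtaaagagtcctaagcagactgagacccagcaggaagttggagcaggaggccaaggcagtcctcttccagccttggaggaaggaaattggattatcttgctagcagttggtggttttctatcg
Hs2st1 domain, chr3:144076060-144076359: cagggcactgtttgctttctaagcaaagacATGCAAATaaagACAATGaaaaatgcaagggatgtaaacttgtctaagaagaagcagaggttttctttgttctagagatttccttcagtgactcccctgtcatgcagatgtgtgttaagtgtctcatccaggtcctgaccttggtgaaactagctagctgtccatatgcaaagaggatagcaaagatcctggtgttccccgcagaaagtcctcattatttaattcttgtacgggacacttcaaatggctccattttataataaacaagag
Sall1 domain, chr8:91469642-91469941: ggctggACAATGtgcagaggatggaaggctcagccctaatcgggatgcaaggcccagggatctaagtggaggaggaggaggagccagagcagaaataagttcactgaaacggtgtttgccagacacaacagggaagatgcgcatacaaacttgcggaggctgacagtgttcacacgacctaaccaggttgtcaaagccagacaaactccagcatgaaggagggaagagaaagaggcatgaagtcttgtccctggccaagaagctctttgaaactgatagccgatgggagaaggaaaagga
Prdm14 domain, chr1:13064571-13064870: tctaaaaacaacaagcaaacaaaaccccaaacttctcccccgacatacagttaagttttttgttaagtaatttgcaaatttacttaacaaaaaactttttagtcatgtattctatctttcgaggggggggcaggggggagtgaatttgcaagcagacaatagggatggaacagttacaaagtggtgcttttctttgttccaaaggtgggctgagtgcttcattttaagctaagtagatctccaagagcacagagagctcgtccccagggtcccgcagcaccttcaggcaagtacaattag

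The octamer stood in 131 of 1280 windows round WT Oct4 summits of distal domains (10.2%, interval 8.69 to 12.0) and in 10.9% of the windows round all 12697 WT Oct4 summits whose window could be read. In the middle 300 bp of the same Oct4-holding distal domains it stood in 2.95% of 982 windows. The Sox core was found in 299 of the 1280 distal windows (23.4%, 21.1 to 25.8), in 19.1% of 984 windows in start-holding domains (16.8 to 21.7) and in 17.0% of all summit windows. In the middle 300 bp of the Oct4-holding distal domains the Sox core stood in 15.8% of 982 windows. Whole distal domains held 0.564 Sox cores per kb and start-holding domains 0.516. Thus Oct4 sites of distal domains held the octamer about as often as Oct4 sites in general, within the interval, and the Sox core more often. The part of the domains' own sequence and of summit height in the Sox core difference was not tested. A longer composite of both motifs, searched by its exact consensus, stood in only 3 of the 1280 windows and in 0.323% of all.

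Distal domains were short and poor in CpG. Their median length was 5.20 kb, against 11.7 kb for start-holding domains, and their median distance from a coding gene start was 40.7 kb, with 19.1% over 100 kb away. By the middle of the domain, 49.1% lay between coding genes, 47.1% in an intron and 3.80% in an exon. A CpG-island-like window (500 bp with at least 55% GC and an observed over expected CpG ratio of at least 0.65, a criterion chosen after seeing the data) was found in 451 distal domains (13.3%, 12.2 to 14.5), in 31.5% of near, 88.7% of start-holding and 62.3% of all domains. Most distal domains, 2722 (80.3%), held no annotated transcript start of any kind. A further 441 held the start of a shorter transcript of a coding gene, and 228 held only non-coding starts. Long intergenic RNAs began in 111 distal domains and miRNAs in 29.

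Domains just inside and just outside the limits of the rule are given as description. The mean read count per bin, the signal deposited for a domain, was 10.9 in the nearest member by Gm3940, 10.11 kb from a start, and 10.7 in the nearest domain left out by Scd4, at 9.982 kb. By length, a 29.9 kb member by Gm17623 had 18.3 and a 31.2 kb domain left out by Tmem17 had 15.8.

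To ask how far distal H3K4me3 survived without Uhrf1, a domain was counted as kept when it shared at least 1 bp with a domain of the other list. In Uhrf1 KO mESC 1732 distal domains were kept (51.1%, 49.4 to 52.8), while the share was 73.0% over all WT H3K4me3 domains. Near domains were kept at 56.3% and start-holding domains at 93.8%, so that distal domains stood 42.8 percentage points below start-holding ones (interval of the difference -44.6 to -40.9). Both mESC H3K4me3 lists were called on 1300 bp bins, but the KO list was shorter, with 11509 domains. Since distal domains are shorter, the difference was also taken within 5 groups of equal length, where it was -28.4 points on average and ran from -32.2 in the shortest group to -9.69 in the longest. It is given with no test, since the groups of domains are not replicates and each genotype had 1 library.

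Kept shares were lowest at week 1 of EB culture. WT EBs kept 39.3% of the distal domains at week 1, 62.9% at week 2 and 67.4% at week 3, beside 76.4%, 83.7% and 86.1% of all WT mESC H3K4me3 domains. In Uhrf1 KO EBs the shares were 30.3%, 71.5% and 76.4%, beside 69.2%, 86.1% and 88.9% of all domains. Start-holding domains stayed between 93.6% and 99.0% in the 6 EB lists, so the distal share lay 57.6 points below the start-holding share in WT EBs at week 1 (difference -57.6, interval -59.3 to -55.9). The EB lists were called on bins of 350 to 400 bp and held 18672 to 39898 domains, the week 1 lists being the shortest in number and in covered length (107 Mb in WT and 73.4 Mb in KO), and the part of list size in the dip was not tested.

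**Figure D1:**
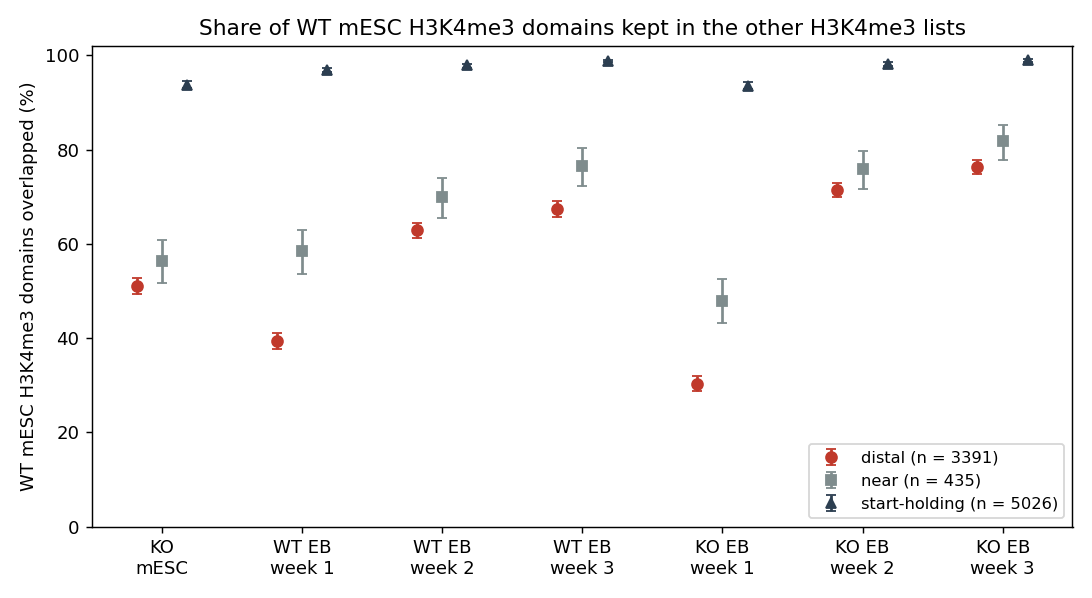
Share of WT mESC H3K4me3 domains (%, y axis) that shared at least 1 bp with each of the 7 other H3K4me3 lists (x axis), for distal, near and start-holding domains. Points are shares and bars 95% Wilson intervals, and the distal share was the lowest of the 3 classes in every list, falling to 39.3% in WT and 30.3% in KO EBs at week 1.

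The same distal domains were compared between genotypes at each week. At week 1, 401 were kept in WT EBs only and 97 in KO EBs only, a difference of -8.96 points for KO minus WT (-10.2 to -7.71). At week 2, 195 were kept in WT only and 486 in KO only (8.58 points, 7.10 to 10.1), and at week 3 the counts were 128 and 432 (8.96 points, 7.63 to 10.3). Thus, with the lists as deposited, KO EBs held fewer of the mESC distal domains than WT EBs at week 1 and more at weeks 2 and 3. With both lists of a week cut to the same number of domains by score, the differences were -9.14, 12.9 and 7.64 points. This alternative was also chosen after seeing the data. With only those EB domains that scored above their list's median, an alternative chosen after seeing the data, the difference was -0.265 points at week 1 (-1.06 to 0.529) and 0.826 at week 2 (-0.699 to 2.35), both with intervals that hold 0, and 6.37 at week 3 (5.05 to 7.69). Near domains moved in the same directions as distal ones, by -10.6, 5.98 and 5.29 points at weeks 1, 2 and 3. The start-holding domains moved by -3.28 points at week 1 and by 0.338 and 0.0796 points later.

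Across all 7 other lists, 742 distal domains (21.9%) were kept in each and 453 (13.4%) in none, beside 61.0% and 6.34% of all WT H3K4me3 domains. Of the distal domains, 864 (25.5%) were in no WT EB list and 1262 (37.2%) in all 3, beside 10.9% and 74.5% of all domains. Distal domains absent at week 1 but present at weeks 2 and 3 made up 645 (19.0%) in WT and 1237 (36.5%) in KO. The share of this pattern over all H3K4me3 domains is not given here. Absent means not called, and the week 1 lists covered the fewest bases. Among the domains of this pattern 42.5% in WT and 41.1% in KO held a WT Oct4 summit, against 29.0% of all distal domains. Among those present at week 3 only, the share was 41.4% in WT and 25.4% in KO.

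Longer domains were kept more often in each list. In KO mESC the share rose from 24.7% of 979 domains of 1.30 to 2.60 kb to 84.0% of 544 domains of 11.7 kb or more. At week 1 it rose from 22.4% to 65.1% in WT and from 16.5% to 53.1% in KO EBs. A long domain offers more bases for an overlap, and coverage of at least 50% lowered the overall share to 44.4% in KO mESC, 15.2% in WT EBs at week 1 and 39.4% at week 3.

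**Figure D2:**
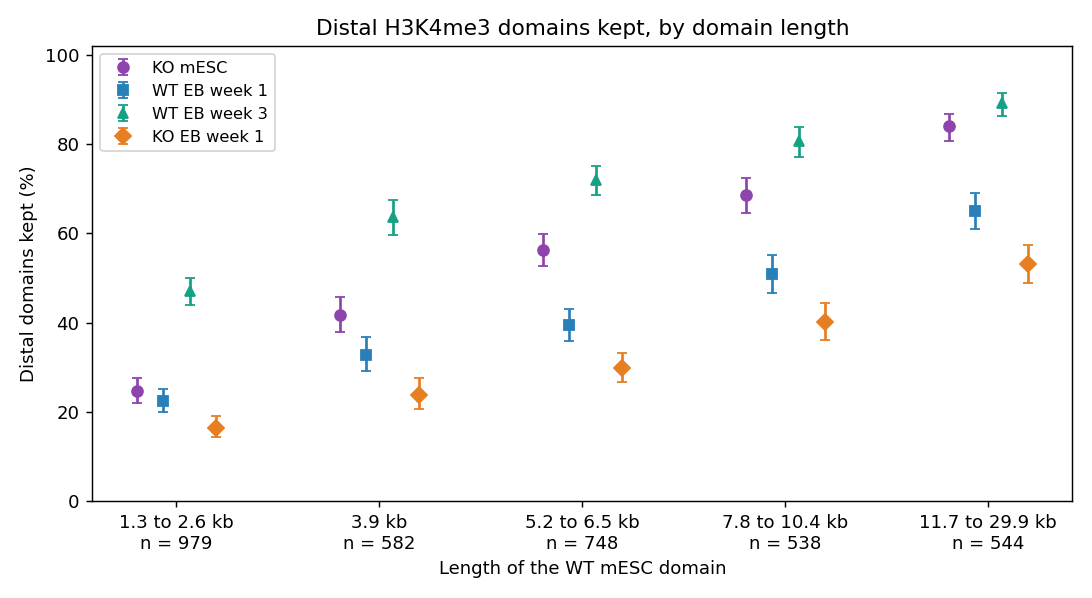
Share of distal domains kept (%, y axis) by length of the WT mESC domain (x axis, 5 groups) in 4 of the other H3K4me3 lists, with 95% Wilson intervals. Each list rises from the shortest to the longest group, from 24.7% to 84.0% in KO mESC.

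Annotated starts and CpG content went with being kept. In KO mESC 76.7% of the 669 distal domains with a transcript start were kept and 44.8% of those without (31.9 points, 28.1 to 35.5, and 17.5 within length groups). Distal domains with a CpG-island-like window were kept at 75.6% in KO mESC, 85.1% in WT and 75.8% in KO EBs at week 1. Those without the window were kept at 47.3%, 32.3% and 23.4%. In KO mESC the gap between them was 28.3 points (23.8 to 32.4), which fell to 12.5 within length groups (8.38 to 16.7). In WT EBs at week 1 the gap was 52.9 points (48.9 to 56.3) and 43.9 within length groups. At weeks 2 and 3 the domains with the window were kept at 90.2% and 92.0% in WT and at 90.7% and 93.3% in KO EBs. Those without it were kept at 58.7% and 63.7% in WT and at 68.5% and 73.8% in KO EBs.

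Distal domains held pluripotency factor summits more often than start-holding ones in WT mESC. Oct4, the POU factor of the core circuit, had a summit in 982 distal domains (29.0%, 27.5 to 30.5), beside 14.8% of start-holding, 15.4% of near and 21.7% of all domains. Sox2, its HMG-box partner, had one in 535 (15.8%), beside 14.5% of all domains, and the homeobox factor Nanog in 289 (8.52%), beside 6.26%. For Oct4 the distal minus start-holding difference was 14.1 points. The Sox2 difference was 5.69 (4.22 to 7.19), and that of Nanog was 5.16 (4.12 to 6.25). Per megabase of domain, distal domains held 56.8 Oct4 summits and start-holding domains 14.9. For a summit of any of the 3 factors the difference was 12.3 points, and 20.2 within length groups, with all 5 groups between 15.8 and 26.1. Almost all of these domains held Oct4: 247 distal domains had all 3 factors, 245 Oct4 and Sox2, 453 Oct4 alone, and 47 had a factor without Oct4.

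In Uhrf1 KO mESC the lists themselves were of very different size, with 576 Oct4, 20755 Sox2 and 10632 Nanog summits against 12898, 5190 and 2390 in WT. An Oct4 summit was left in 44 distal domains (1.30%, 0.968 to 1.74), beside 0.930% of all WT H3K4me3 domains, and all 44 also held KO Sox2 and KO Nanog. KO Sox2 stood in 1321 (39.0%, 37.3 to 40.6), below the 51.9% of start-holding and the 47.0% of all domains. KO Nanog stood in 818 (24.1%, 22.7 to 25.6), above the 12.6% of start-holding and the 17.9% of all domains. By share of domains, distal domains therefore lay above start-holding domains for Nanog in both genotypes. For Sox2 they lay above them in WT (5.69 points) and below them in KO (-12.9, -15.1 to -10.8). Per megabase of domain, however, distal domains held more Sox2 summits than start-holding ones in both genotypes. The values were 26.8 against 9.16 in WT and 75.6 against 53.3 in KO. The part of domain length in the KO Sox2 shares was not tested. As a share of each list, which does not grow with its length, distal domains took 9.92% of WT and 8.16% of KO Oct4 summits, 11.6% and 8.21% for Sox2, and 13.3% and 9.97% for Nanog.

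**Figure D3:**
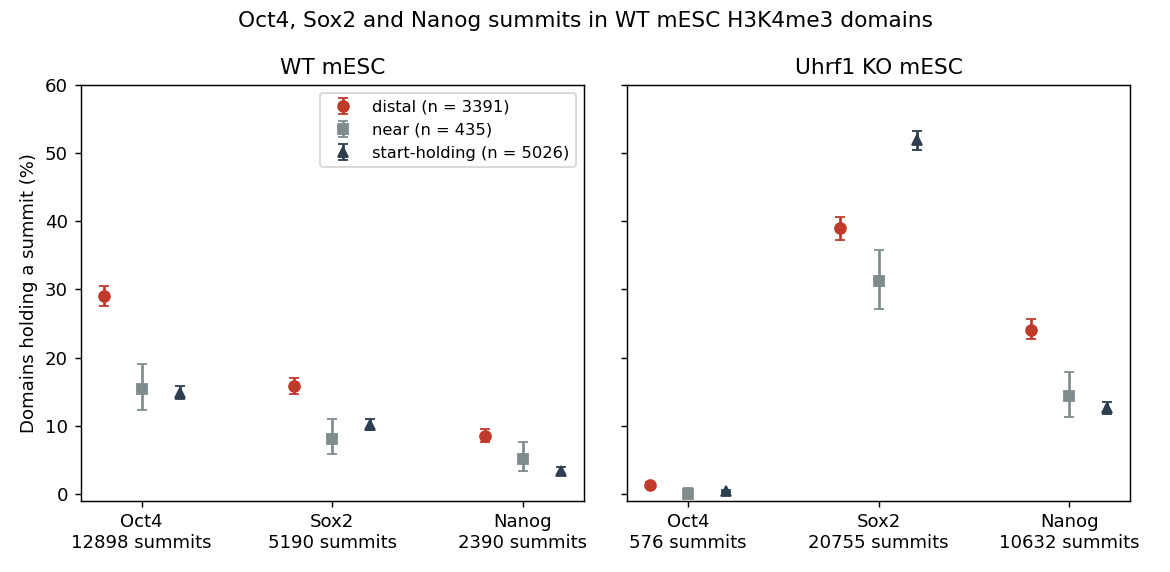
Share of distal, near and start-holding WT mESC H3K4me3 domains holding at least 1 summit of Oct4, Sox2 or Nanog (%, y axis) in WT (left) and Uhrf1 KO mESC (right), with 95% Wilson intervals and the number of summits in each list. Distal domains lead for the 3 factors in WT and for Oct4 (1.30% against 0.378%) and Nanog in KO, whereas start-holding domains lead for KO Sox2 (51.9% against 39.0%). The shares do not allow for domain length, and per megabase distal domains held more KO Sox2 summits (75.6 against 53.3).

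WT Oct4 sites of distal domains mostly had another factor beside them in the KO. Of 1280 such sites, 39 (3.05%) had a KO Oct4 summit within 100 bp, 799 (62.4%) a KO Sox2 and 589 (46.0%) a KO Nanog summit. Over all 12898 WT Oct4 sites these shares were 1.89%, 46.0% and 32.4%. KO Sox2 or Nanog was found at 892 distal sites (69.7%, 67.1 to 72.1), compared with 51.9% of all sites, 65.9% of Oct4 sites in start-holding domains and 43.7% of those outside all H3K4me3 domains (42.6 to 44.8). The distal sites were taller, with a median of 47.0 reads at the summit against 39.0 and 34.0, and the part of height in the difference was not tested.

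Oct4-holding distal domains were kept more often than the others in some lists and less often in others, and the change between stages was not tested. In KO mESC they were kept at 59.3% and the others at 47.7% (11.5 points, 7.84 to 15.2), which fell to 3.82 points within length groups (0.455 to 7.18). At week 1 the order was the opposite, with 31.5% against 42.5% in WT EBs (-11.0 points, -14.5 to -7.48) and 21.4% against 34.0% in KO EBs (-12.6, -15.7 to -9.35). Within length groups the week 1 gaps were wider, at -17.2 and -18.5 points. By week 3 Oct4-holding domains again led, with 73.7% against 64.9% in WT (8.85 points) and 81.8% against 74.2% in KO, and within length groups the WT gap was 3.43. At week 2 in WT EBs the gap was 0.760 points (-2.85 to 4.30), and -4.81 within length groups. In KO EBs at week 2 it was 9.18 points (78.0% against 68.8%, 5.93 to 12.3), and 3.75 within length groups. Among the 899 domains with Oct4 and no CpG-island-like window the share was 27.1% at week 1 and 72.0% at week 3 in WT EBs, and 16.9% and 80.5% in KO EBs.

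**Figure D4:**
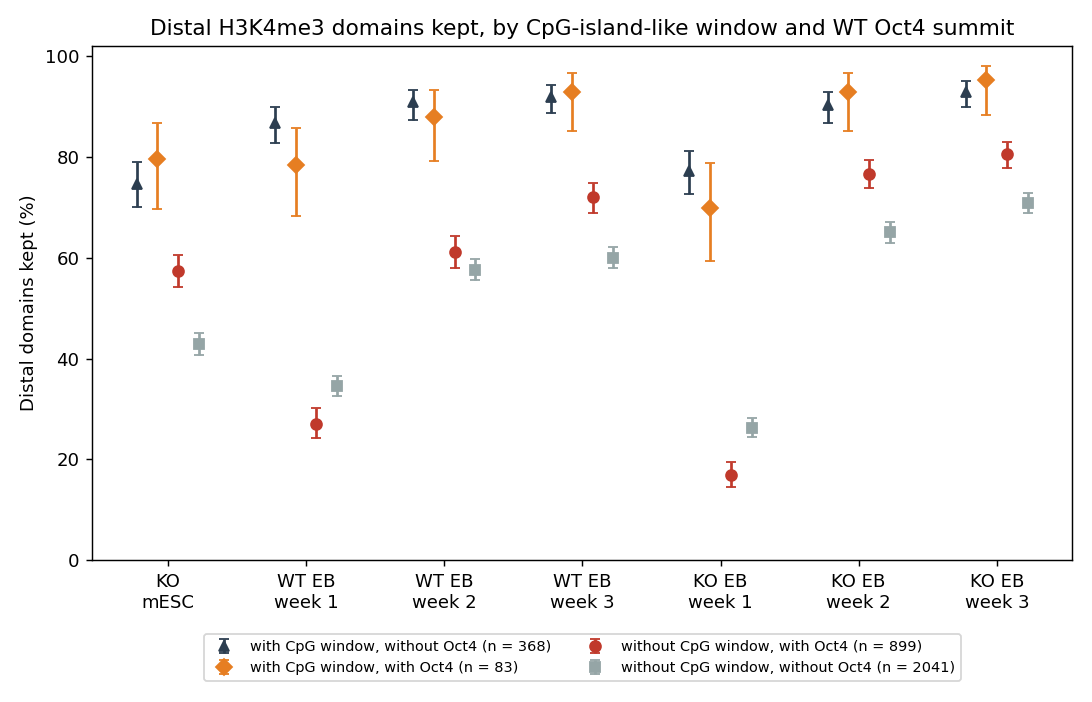
Share of distal domains kept (%, y axis) in the 7 other H3K4me3 lists (x axis), split by a CpG-island-like window and by a WT Oct4 summit, with 95% Wilson intervals. Domains with the window stay at or above 69.9% in each list, and those with Oct4 and without the window have the lowest shares at week 1 (27.1% in WT, 16.9% in KO).

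H3K9me3, the mark of heterochromatin that Uhrf1 binds, overlapped 817 distal domains in WT mESC (24.1%, 22.7 to 25.6), beside 29.1% of all H3K4me3 domains and 13.8% of start-holding ones. In KO mESC it overlapped 1650 (48.7%, 47.0 to 50.3), beside 44.0% and 36.0%. Of the 2574 distal domains outside WT H3K9me3, 986 (38.3%) lay in a KO H3K9me3 domain, and of the 817 inside, 664 (81.3%) still did. The lists covered 988 Mb in WT and 1086 Mb in KO, in domains of median length 37.8 and 140 kb. Distal domains with a WT Oct4 summit met KO H3K9me3 at 61.0% and the others at 43.6% (17.4 points, 13.7 to 21.0), with a positive gap in each of the 5 length groups, which averaged 15.4 points (11.7 to 19.1). The gap was also seen in WT (30.7% against 21.4%). A distal domain in WT H3K9me3 was kept less often in KO mESC, at 44.7% against 53.1% (-8.43 points, -12.3 to -4.50), and in WT EBs at week 3, at 55.8% against 71.1%.

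Uhrf1 windows, regions of 10 kb enriched for Uhrf1 in WT mESC, touched 58 distal domains (1.71%, 1.33 to 2.20), beside 2.97% of all H3K4me3 domains and 0.955% of start-holding ones. Of these 58, 39 (67.2%) also lay in WT H3K9me3. They were kept in KO mESC at 53.4% and the other distal domains at 51.0%, a difference of 2.41 points with an interval from -10.3 to 14.8 that holds differences of either sign. In EBs they were kept at lower shares than the other distal domains, with a difference of -17.7 points in WT at week 3 (-30.3 to -5.18), and in KO EBs of -20.1 at week 2 (-32.8 to -7.66) and -16.3 at week 3 (-29.3 to -4.68). The WT difference was -13.1 at week 2 (-25.7 to -0.556), and at week 1 the intervals held 0 in both genotypes (-10.2 points in WT and -8.07 in KO). The members with the highest score, the deposited value that grows with domain length, lay by Clk4 (chr11:51012001-51040600), in Macf1 (chr4:123241301-123263400) and by Zfp846 (chr9:20402201-20423000). All 3 were kept in KO mESC, at 18.2%, 94.1% and 87.5% of their bases, and none held a factor summit.

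H3K27me3, the Polycomb mark, was absent from distal domains in WT mESC by the rule. In KO mESC it met 93 (2.74%), beside 8.27% of all H3K4me3 domains. In WT EBs it met 5.07%, 12.1% and 15.2% of distal domains at weeks 1, 2 and 3, beside 24.8%, 26.7% and 34.5% of all domains. In KO EBs it met 10.1%, 12.6% and 7.49%, beside 24.6%, 25.8% and 21.4%. The lists differed widely in size, with 84.1 Mb in KO mESC against 960 Mb in WT mESC, from 101 Mb (week 1) to 1165 Mb (week 2) in WT EBs and from 180 to 467 Mb in KO EBs, and a change at the domains cannot be told apart from a change in the list. At week 1 the distal minus start-holding difference was -4.78 points in WT EBs (-5.87 to -3.66) and -0.320 in KO EBs (-1.63 to 1.02). At week 2 it was 4.78 in WT (3.48 to 6.11) and 4.72 in KO (3.40 to 6.08). At week 3 the values were 3.70 in WT (2.21 to 5.21) and 3.61 in KO (2.60 to 4.67). The shares of all domains include those that met H3K27me3 in WT mESC, which were left out of both classes.

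The distal domains of highest score illustrate how far single members differed. The first, 29.9 kb long on chromosome 18 with the Mir143 and Mir145 genes, had a mean count of 10.9 and was covered at 87.0% in KO mESC, 19.4%, 58.2% and 81.3% in WT EBs at weeks 1, 2 and 3, and 9.87%, 87.1% and 93.3% in KO EBs. A domain of 29.9 kb by Gm17623 (chr4:133360501-133390400) held all 3 WT factors and was covered at 95.7% in KO mESC, and 28.1%, 56.2% and 76.3% in WT EBs. Both were kept in the 7 lists and were covered least at week 1. In contrast, the Arid2 domain (chr15:96025801-96055700), with the long non-coding 2610037D02Rik start, was covered at 87.0% in KO mESC and at 5.35%, 5.35% and 22.7% in WT EBs. By Ccne1, the cyclin E1 gene, a domain (chr7:38842701-38872600) without a summit of any factor in either genotype was covered at 82.6% in KO mESC and at 18.7%, 28.1% and 29.4% in WT EBs. A 28.6 kb domain in Dlc1 (chr8:37654501-37683100) was covered at 81.8% in KO mESC and at 33.6%, 94.8% and 92.0% in WT EBs.

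Among the distal domains that met no called H3K4me3 domain in KO mESC, the highest scores were in an intron of Wwp2 (chr8:110020301-110045000), by Socs3, in Dock3 (chr9:107057601-107079700), in Tbc1d12 (chr19:38929801-38957100) and by Sec14l1 (chr11:116885601-116905100). A domain missing from a list is one that was not called, and the KO reads at these places were not examined. Their mean counts in WT, 6.22 to 8.95, were below the distal median of 11.9. The Tbc1d12 domain, 27.3 kb long with 2 WT Oct4 summits, appeared in none of the 7 lists. The Wwp2 domain was absent at week 1 in both genotypes but covered at 39.3% and 36.0% in WT and 23.1% and 47.4% in KO EBs at weeks 2 and 3.

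The tallest Oct4 summits of distal domains lay by Ly6c2, Cyp7b1, Fzd7, Vwa3b and Hs2st1, with 167, 144, 142, 138 and 133 reads. Sox2 and Nanog shared each of these domains in WT. At Ly6c2 (chr15:74915101-74917700) Oct4 was still called in the KO with 99 reads, Sox2 had 577 in WT and 513 in KO and Nanog 105 and 98, and the domain was kept in all 7 lists. This domain also met H3K9me3 in both genotypes, and the tallest summits of all factor lists lay between positions 74917205 and 74917291. The inputs were not analysed, so the signal there was not checked against them. The Fzd7 domain (chr1:59430801-59434700), 104 kb from the Wnt receptor gene, carried the octamer printed above. No KO Oct4 summit remained there, Sox2 had 31 reads in WT and 29 in KO and Nanog 28 and 22. No H3K4me3 domain was called there in KO mESC or at week 1 in either genotype. In WT EBs none was called at week 2 and 17.9% was covered at week 3, and in KO EBs 48.7% was covered at weeks 2 and 3. The Hs2st1 domain (chr3:144072501-144077700), whose octamer and Sox core lie side by side, was likewise missing from KO mESC and week 1, and was covered at 53.8% and 38.5% in WT EBs at weeks 2 and 3.

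Of the distal domains, 29 held the start of a miRNA gene, a group chosen after its values were seen. They were kept in KO mESC in 25 cases and in all 7 other lists in 19, and 9 held a WT Oct4 summit. Over all distal domains the shares were 51.1%, 21.9% and 29.0%, so the count with Oct4 was near that of distal domains at large. Distal domains with any transcript start were kept in KO mESC at 76.7%, and those of 11.7 kb or more at 84.0%. The miRNA domains were often long. The part of length and of a start in the counts of the miRNA domains was not tested. RefSeq held 21 of the 44 miRNA gene names in them under the same symbol. The miR-290 to miR-295 cluster, the main source of miRNAs in mESC, lay in a 23.4 kb domain (chr7:3199301-3222700). The middle of this domain lay between coding genes, and the domain overlapped the coding gene Nlrp12. This domain held 6 WT Oct4, 5 Sox2 and 1 Nanog summits, the tallest with 120, 81 and 38 reads, and in the KO no Oct4, 5 Sox2 and 5 Nanog summits, the tallest with 117 and 51. Its H3K4me3 was covered at 77.8% in KO mESC, 20.5%, 8.55% and 73.5% in WT and 8.97%, 62.4% and 100% in KO EBs at weeks 1, 2 and 3. The cluster on the X chromosome with Mir106a, Mir18b, Mir20b, Mir19b-2, Mir92-2 and Mir363 (chrX:50094201-50108500) held 3 WT Oct4 summits and was covered at 100% in KO mESC, 30.8%, 36.4% and 39.2% in WT and 22.0%, 40.9% and 46.2% in KO EBs. Mature sequences of both clusters are shown because several share a seed (bases 2 to 8, in capitals), the part that pairs with target RNAs.
miR-291a-3p: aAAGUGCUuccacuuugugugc
miR-294-3p: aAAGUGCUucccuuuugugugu
miR-295-3p: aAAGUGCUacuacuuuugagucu
miR-106a-5p: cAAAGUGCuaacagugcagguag
miR-20b-5p: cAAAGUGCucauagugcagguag
miR-92a-3p: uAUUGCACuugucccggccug
miR-363-3p: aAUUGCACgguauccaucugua

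These 3 miRNAs of the chromosome 7 domain shared the seed AAGUGCU, miR-106a-5p and miR-20b-5p shared AAAGUGC, which is the same run moved by 1 base, and miR-92a-3p and miR-363-3p shared AUUGCAC. A 23.4 kb domain with Mir182, Mir96 and Mir183 (chr6:30109301-30132700), miRNAs known from sensory cells, was covered at 44.4% in KO mESC, 30.8%, 51.3% and 85.5% in WT and 4.49%, 66.5% and 74.8% in KO EBs. The domain with Mirlet7i (chr10:122415801-122426200), of the let-7 family that rises on differentiation, held a CpG-island-like window and was covered at 100% in KO mESC and at 57.2% or more in each EB list.

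For each distal domain the nearest coding gene was noted, which names a neighbour and not a target. In all 2565 genes of 22380 (11.5%) were nearest to at least 1 distal domain. Their promoters met WT H3K4me3 without H3K27me3 in 59.3% of cases, against 46.8% of all coding genes. Of 33 pluripotency genes 14 were nearest to a distal domain (42.4%), as were 9 of 17 Wnt, 7 of 16 FGF and Erk, 6 of 20 Nodal, TGF-beta and BMP and 3 of 10 LIF and Stat3 pathway genes. The counts were 2 of 17 for neuroectoderm (11.8%) and 2 of 12 for endoderm (16.7%), beside 11.5% of all coding genes. They were 0 of 18 for mesoderm and heart and 0 of 10 for genes of the 2-cell stage. The rule leaves out domains that met WT H3K27me3. Promoters met WT H3K4me3 without H3K27me3 in 24 of 33 pluripotency genes. In the neuroectoderm, endoderm, mesoderm and 2-cell lists this held for 2 of 17, 0 of 12, 1 of 18 and 1 of 10. In the 4 signalling lists it held for 4 of 10 genes (LIF) to 16 of 20 (TGF-beta). The part of the H3K27me3 limit in the counts was not tested. The lists were chosen with earlier results known and differ in the room around their genes, so the counts are description with no test. The 26 domains of the pluripotency list were kept in KO mESC in 13 cases, beside 51.1% of all distal domains, and 14 (53.8%) held a WT Oct4 summit.

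Pluripotency genes had distal domains with widely different fates. Jarid2, a partner of Polycomb complex 2, had an intronic domain (chr13:44931901-44948800) that held a Jarid2 transcript start. It was covered at 100% in KO mESC, 9.47%, 47.3% and 61.5% in WT and 10.4%, 72.8% and 89.9% in KO EBs. Prdm14, a zinc finger protein that holds back FGF signalling and DNA methylation, had 2 among the 6 of highest score. The longer one, 41.8 kb from the gene start (chr1:13058501-13075400), held WT Oct4, Sox2 and Nanog at 107, 52 and 61 reads and KO Oct4 at 18, Sox2 at 114 and Nanog at 88. It was covered at 92.3% in KO mESC. In WT EBs it was absent at weeks 1 and 2 and covered at 23.7% at week 3, while KO EBs lacked it at week 1 and had 68.9% and 37.9% later. The other Prdm14 domain (chr1:13083201-13096200) was kept in all 7 lists. Sall4, a zinc finger factor of early embryos, had a domain (chr2:168654201-168668500) covered at 100% in KO mESC and between 26.9% and 61.5% in EBs. Sall1, its relative, had one (chr8:91468001-91478400) missing from KO mESC and week 1, and covered at 19.2% and 69.2% in WT and 43.8% and 65.4% in KO EBs at weeks 2 and 3. The domain nearest to Nanog (chr6:122684901-122699200) lay 27.4 kb from its start, in an intron of Slc2a3. It held a transcript start of the coding gene Slc2a3 and a CpG-island-like window. This domain held 1 WT Sox2 summit with 11 reads and no Oct4, and was kept in all 7 lists, at 90.9% in KO mESC.

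Signalling genes with a distal domain included feedback inhibitors. Socs3, the inhibitor of LIF and Stat3 signalling, had a 19.5 kb domain (chr11:117780001-117799500) with WT Oct4 and Sox2 at 33 and 16 reads that was missing from KO mESC and from week 1, and covered at 36.4% and 34.4% in WT and 44.9% and 32.8% in KO EBs at weeks 2 and 3. Jak2 and Stat3, the kinase and the transcription factor of the pathway, had intronic domains (chr19:29343601-29361800 and chr11:100772101-100774700) covered at 100% in KO mESC, and in EBs the Jak2 domain was never covered above 11.5% and that of Stat3 was absent. Of FGF inhibitors, Spred2 had a 28.6 kb domain (chr11:19727501-19756100) covered at 90.9% in KO mESC, absent at week 1 and covered at 19.6% and 29.7% in WT EBs later. Spry2 had one of 27.3 kb (chr14:106247701-106275000) with 3 Oct4 summits, the tallest with 75 reads, covered at 14.3% in KO mESC. The Ski domain (chr4:154540101-154566100), at a co-repressor of Smad proteins, held a Ski transcript start. It was covered at 35.0% in KO mESC, 4.62%, 100% and 89.6% in WT and 0%, 81.3% and 100% in KO EBs. The inhibitory Smad7 gene on chromosome 18 had several, of which 1 without Oct4 and with a CpG-island-like window was missing from KO mESC and covered at 80.0%, 49.2% and 100% in WT EBs. Tcf7l1, the repressor of Wnt targets in mESC, had an intronic domain (chr6:72699901-72710300) covered at 100% in KO mESC, absent from WT EBs and covered at 16.8% and 16.3% in KO EBs at weeks 2 and 3. Lef1, an activator in the same pathway, had one (chr3:130838501-130847600) covered at 100% in KO mESC, 8.79%, 51.6% and 44.0% in WT and 7.69%, 7.69% and 0% in KO EBs.

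**Figure D5:**
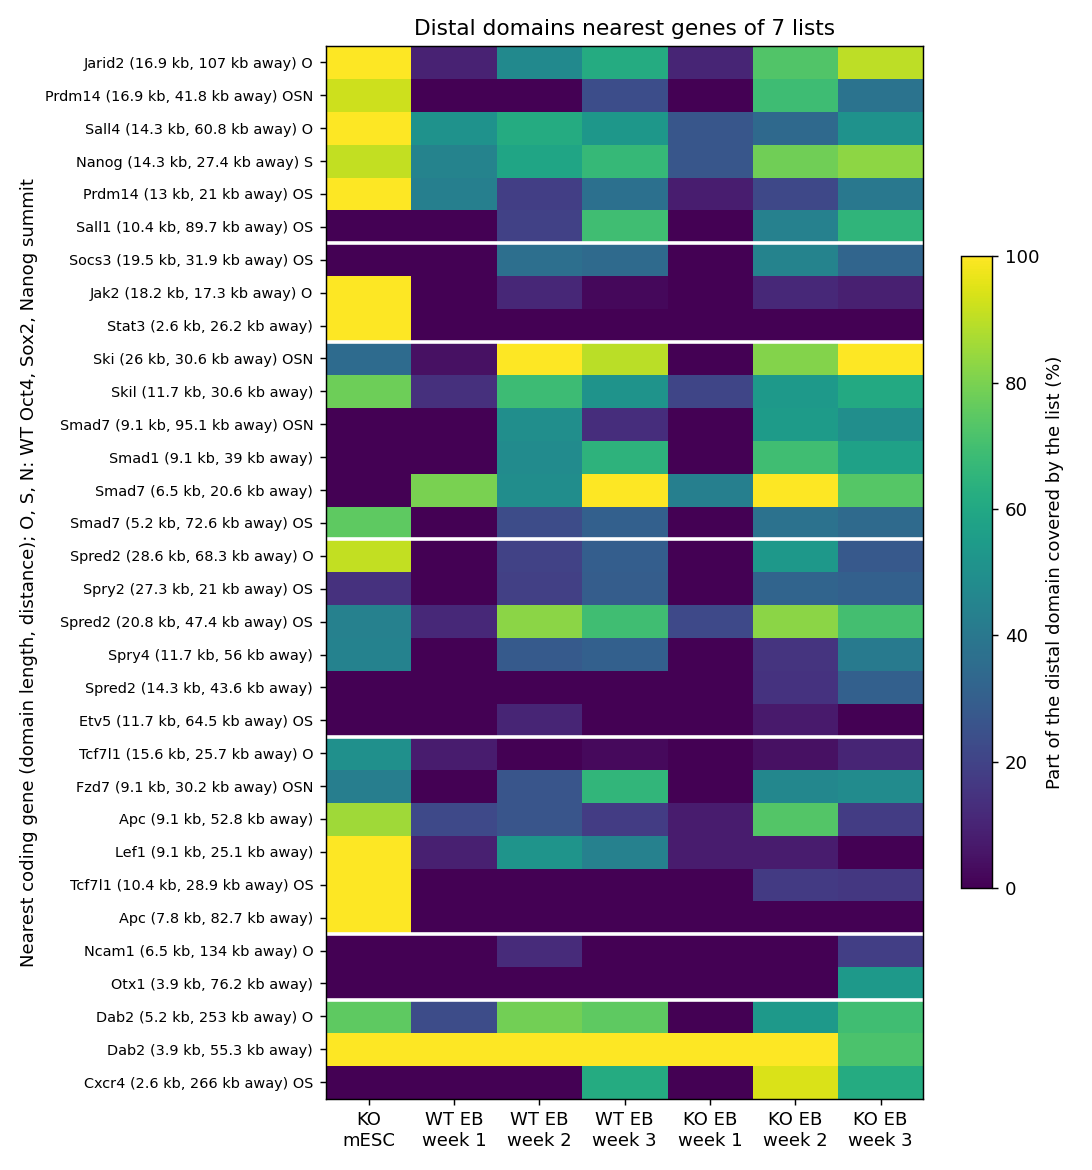
Part of each distal domain covered (%, colour from 0 to 100) in the 7 other H3K4me3 lists (columns), for up to 6 domains of highest score per gene list (rows, named by the nearest coding gene with domain length and distance). White lines separate, from the top, pluripotency, LIF, TGF-beta, FGF, Wnt, neuroectoderm and endoderm lists, and rows differ widely, as Sall1 with 0% at week 1 and 69.2% at week 3 in WT EBs beside Stat3 with 0% in all EB lists. Letters mark WT Oct4 (O), Sox2 (S) and Nanog (N) summits.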

How the data were processed

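Reads were mapped to mm9 with Bowtie2 2.1.0, named in the submitters' processing notes with MACS. The authors called histone domains per library with RSEG against input and deposited a score, which rises with the number of bins, beside a signal (reads per bin, averaged over the domain). For Oct4, Sox2 and Nanog they deposited MACS summits with a signal, the reads at the summit. The Uhrf1 list holds 10 kb windows with no score. Whether signals were scaled to depth is not given in the sources used here, and no library totals entered the analysis. The 8 inputs were not analysed here.

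Distal domains were found by the rule above with GENCODE starts of 22380 coding genes. Overlap meant at least 1 bp, a summit belonged to the domain holding it, and paired factor sites lay within 100 bp. Shares have Wilson and differences Newcombe 95% intervals (paired differences and averages over length groups normal ones), covering counting error over domains only. With 1 library per group no test was possible. One Oct4 window that met the rule is not reported here. Sequences came from the mm9 genome and, for miRNAs, RefSeq (GRCm38.p6). Python 3.11.15, numpy 2.4.6, pandas 2.3.3 and pysam 0.24.0 were used, and overlap functions were tested on simulated data.

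The members, gene lists and alternatives were chosen with earlier results of these data known. Named domains were those of highest score, kept in all lists or missing in KO mESC, with the tallest Oct4 summits, all 3 factors, Uhrf1 or H3K9me3, per gene list, and at the limits, up to 6 each. MiRNA domains, CpG windows and EB patterns were chosen after seeing values.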

Additional observations from a re-analysis of the deposited data

Results flagged for a closer look

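Differences of opposite direction between stages were set apart for a closer look. The kept share of distal domains in KO minus WT EBs was negative at week 1 (-8.96 points) and positive at week 2 (8.58) and week 3 (8.96). The difference between the weeks was not tested, since each group had 1 library. Distal domains with a WT Oct4 summit minus those without differed by 11.5 points in KO mESC, -11.0 in WT EBs at week 1, -12.6 in KO EBs at week 1 and 8.85 in WT EBs at week 3. The change of direction between stages was not tested either. Week 1 lists covered the fewest bases, 107 Mb in WT and 73.4 Mb in KO, and the part of covered length was not tested. With both lists of a week cut to the same number of domains by score, the KO minus WT values were -9.14, 12.9 and 7.64. With only those EB domains that scored above their list's median, the KO minus WT values were -0.265, 0.826 and 6.37, of which the first and second have intervals that hold 0.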

How the results depend on the processing

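Of 90 alternatives over 25 results, 38 moved the value by less than its interval, 52 moved it further and 0 reversed its direction. Most of the alternatives were of shares, which have no direction, so only those of differences could be counted as reversed. The Oct4 gap in WT EBs at week 2, 0.760 points and -4.81 within length groups, was not among the 25 results. With at least 50% of a domain covered, the kept share was 44.4% in KO mESC, 15.2%, 37.7% and 39.4% in WT EBs at weeks 1, 2 and 3, and 8.08%, 40.9% and 44.8% in KO EBs. The KO minus WT differences were then -7.14, 3.24 and 5.46 points, WT H3K9me3 met 21.8% and Uhrf1 windows 1.18%. With only domains of the other list above its median score, the kept share was 20% in KO mESC, 9.70%, 40.5% and 31.6% in WT and 9.44%, 41.3% and 38.0% in KO EBs, and the differences were -0.265 (-1.06 to 0.529), 0.826 (-0.699 to 2.35) and 6.37. Both alternatives count fewer bases or domains by construction.

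With distance taken from the starts of all transcripts of any gene type, the kept share was 45.9% in KO mESC, 32.6%, 59.4% and 63.0% in WT and 23.3%, 68.4% and 73.4% in KO EBs, and the distal minus start-holding difference in KO mESC was -45.3. WT Oct4 then stood in 31.5%, WT Sox2 in 17.0%, KO Nanog in 25.8% and WT H3K9me3 in 26.5%. With only summits above the median height, the shares were 21.1% for WT Oct4, 10.6% for WT Sox2, 4.01% for WT Nanog, and 0.649%, 28.0% and 16.6% in the KO. KO Sox2 reached 40.7% with summits within 1000 bp of the domain and 40.8% with a limit of 20 kb.

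Averaged over length groups, the distal minus start-holding difference was -28.4 for domains kept in KO mESC and 20.2 for any WT factor, and the Oct4 gap was 3.82 in KO mESC, -17.2 in WT and -18.5 in KO EBs at week 1 and 3.43 in WT EBs at week 3. Averaged over groups of mean count, the first of these was -35.4. With both lists cut to the same number by score, the KO minus WT difference was -9.14 at week 1, 12.9 at week 2 and 7.64 at week 3. Without CpG-island-like windows, the Oct4 gap at week 1 was -7.40 in WT and -9.30 in KO EBs. Apart from the construction of each alternative, the cause was not tested. The alternatives for KO minus WT differences and for Oct4 gaps were chosen after seeing the data.

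No paired analysis was possible because each group had 1 library, and leaving out a library leaves no list to compare. Intervals cover counting error over domains only, and neighbouring domains are not independent. Read totals, the spread between cultures and the scaling of the signal are unknown here, so differences between lists cannot be told apart from differences between libraries.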

Other observations

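Several genes were the nearest neighbour of many distal domains. Arhgap21, Epb4.1l4a and Tbl1xr1 had 8 each, of which 6, 4 and 4 were kept in KO mESC. Klf3 had 6, with 4 kept and 4 holding Oct4. Among genes with 5, all 5 domains were kept in KO mESC at Med13l, Msi2, Pde4d and Tns3, 1 at Casz1 and at Tle4, and 0 at 4933402J07Rik, of which 4 were present in WT EBs at week 3. Over all distal domains 51.1% were kept in KO mESC, 29.0% held WT Oct4 and 67.4% were kept in WT EBs at week 3. The genes named were picked from 25 with at least 5 domains, so their counts are description with no test.

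By chromosome, distal domains were densest on chromosome 11, with 2.01 per megabase (245 domains). Chromosome 11 held 7.23% of distal domains, 3.48% of start-holding domains and 7.39% of coding genes. Among chromosomes that held any, distal domains were sparsest on the X, with 0.450 per megabase (75 domains). The X held 2.21% of distal domains, 5.09% of start-holding domains and 4.16% of coding genes. No distal domain lay on the Y. In WT EBs at week 2, H3K27me3 met 27.9% of the distal domains in WT mESC H3K9me3 and 7.11% of the others (20.8 points, 17.6 to 24.1). In KO EBs at week 2 the shares were 11.3% and 13.1% (-1.79 points, -4.20 to 0.869). The week 2 H3K27me3 lists covered 1165 Mb in WT and 467 Mb in KO. At week 3 the gap was positive in both genotypes, with 22.8% against 12.8% in WT and 10.2% against 6.64% in KO. At week 1 the intervals held 0 in both (-0.877 points in WT and -2.00 in KO). The part of list size in these gaps was not tested.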
